A study of Mus musculus with 12 samples.

Results

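A set of 9 genes used as markers of dendritic cells was followed in mouse macrophages that had been sorted from the normal pancreas or from pancreas tumors. The genes are Zbtb46, Xcr1, Batf3, Dpp4, Cd209a, Fscn1, Cd83, Siglech and Cd24a. They were chosen by name, with earlier results of these data known, and found by gene symbol on the array. All 9 genes were on the array, with 13 probes among them, and 8 of the 9 passed the filter on dim probes and stood among the 16416 genes tested.

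The arrays came from macrophages of normal pancreas (6 arrays) and of pancreas tumor (6 arrays). Both groups are labelled C57/B6, female and 4 to 5 months old, with a genotype marked as not provided. The treatment protocol speaks of animals implanted with tumors, whereas the design text lists wild-type, KPC and FLT3-CRE/LSL-YFP mice as sources, and no label ties a sample to any of them. KPC mice develop pancreatic ductal adenocarcinoma, and FLT3-CRE/LSL-YFP mice carry a fluorescent reporter switched on in cells that have expressed Flt3. Cells were sorted by flow cytometry straight into lysis buffer, with the gate not given in the sources used here, and the RNA was amplified as cDNA before labelling with Cy5, so folds below are those of the amplified product. In each group 1 sample name stands on 2 arrays (normal replicates 2 and 3, tumor replicates 4 and 6). These were averaged, which left 5 samples per group. Since no label says whether the samples came from separate animals, the p-values reflect only how these samples scattered, and some of that scatter may be technical.

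Dendritic cells take up antigen in tissues, travel to lymph nodes and present it to T cells. Conventional dendritic cells depend on Flt3 ligand and are marked by the transcription factor Zbtb46, which macrophages largely lack. Their type 1 subset requires Batf3 and Irf8 and cross-presents antigen to CD8 T cells, the type 2 subset depends more on Irf4, and plasmacytoid dendritic cells are interferon producers that require Tcf4. Several of these markers are also made outside the lineage: Cd83 by activated macrophages and B cells, Dpp4 by T cells and epithelium, and Cd24a by B cells, neutrophils, erythroid precursors and epithelium.

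Probe sequences are shown for Dpp4 and Cd83 and for the genes measured by several probes, because the probes of Siglech did not give the same picture. The array reads each gene through probes of 60 bases, and the lines give 30 of them, bases 1 to 30, except for Siglech probe A_55_P2141013, where bases 31 to 60 are given. Capitals mark the 15 bases of that probe, bases 39 to 53, that occur in the most other promoter windows.
Siglech A_55_P2141013: tctgtctcAAAGAAAGAAAGAAAgaaagaa
Siglech A_55_P2141008: attggattaatccagtgtgtgaacagtctt
Siglech A_55_P2165790: acaacagttaaattcccttgcagagacatc
Zbtb46 A_52_P241508: tgctcggtgatgatggctcacttctgttcg
Zbtb46 A_52_P214042: gtcacatgtgcgtttttaaaaaggagttga
Cd209a A_55_P2018061: ggacatggtgagcctcaatgttatagacct
Cd209a A_51_P133884: tccttgtcaaagtctacaaaatacccagtt
Dpp4 A_51_P467110: caaagcactgacttctaagtaaaaccacag
Cd83 A_51_P199135: agctattgcgccacgacaggaggaagttct

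The capitals of A_55_P2141013 are a run of AAAG units. As a measure of how widespread a probe's sequence is, each probe was compared on both strands with RefSeq promoter windows (GRCm38.p6, 250 bases before to 50 after a gene start) of 27025 genes. A_55_P2141013 shared at least 1 stretch of 15 bases with the windows of 75 other genes, and only 0.728% of the 39429 probes shared stretches with as many. The capitals alone occurred in the windows of 34 other genes, or 0.126% of genes. The other 12 member probes shared stretches with at most 3 other genes, and both other Siglech probes with 0. A match is a description of sequence and does not show what a probe bound.

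In the array annotation (mm9, without exons, introns or untranslated regions), the Siglech probes lie at chr7:63034088-63034147 (A_55_P2141013), chr7:63028608-63028667 (A_55_P2141008) and chr7:63033826-63033885 (A_55_P2165790). The Zbtb46 probes lie at chr2:181146404-181146463 (A_52_P241508) and chr2:181145799-181145858 (A_52_P214042). Cd209a probe A_55_P2018061 lies at chr8:3743481-3743540, and A_51_P133884 spans 672 genomic bases at chr8:3747664-3748335, more than its length, so it joins separate stretches of the genome. The single probes lie at chr2:62170062-62170121 (Dpp4), chr5:143734308-143734367 (Fscn1), chr13:43898276-43898335 (Cd83), chr1:192932528-192932587 (Batf3), chr9:123761482-123761541 (Xcr1) and chr10:43303706-43303765 (Cd24a).

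Arrays differed in brightness, with a 75th percentile of signal from 398.4 to 1547 and 39.4% to 58.8% of probes well above background, and normal replicates 2 and 3 were the dimmest. Levels below are log2 signals relative to the 75th percentile of the array, so 0 is that percentile. Levels of different probes are not comparable with each other. Of the 16416 genes, limma passed 140 (0.853%) at an adjusted p under 0.05, 56 higher and 84 lower in tumor. None of the 8 member genes tested was among them, and 3 (Dpp4, Fscn1 and Cd83) had an unadjusted p under 0.05, against 13.0% of all genes tested. Of the 12 member probes tested singly, 0 passed an adjusted p under 0.05, against 0.828% of all probes. At least 3 arrays of both groups measured 9 of these 12 well above background, among them all 8 probes that stand for a gene. The other 3 (Zbtb46 A_52_P214042 and the dim Siglech probes) passed the filter through 1 group alone, so they are described without a test. The median difference of the 8 members was 0.18 on the log2 scale, against -0.005 over all genes tested, and 5 were positive. In 0 of 8 members did every tumor sample lie above every normal sample (1.75% of all genes), and in 0 of 8 did every tumor sample lie below (1.57%).

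**Figure D1:**
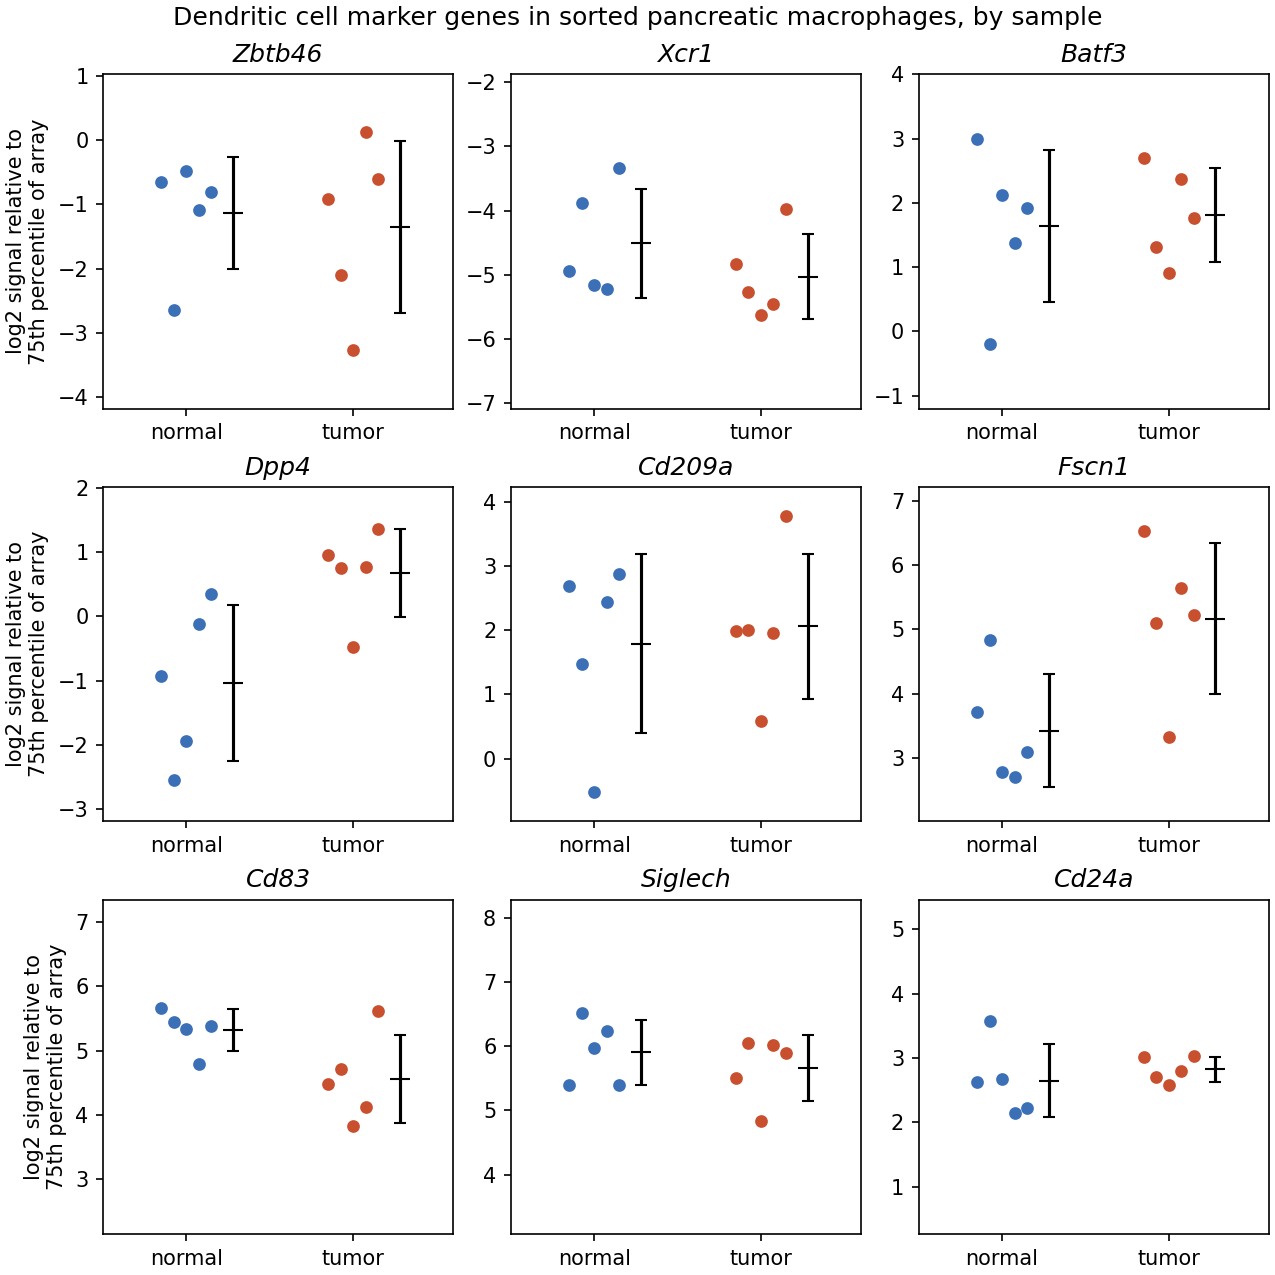
Log2 signal relative to the 75th percentile of the array for each member gene, in 5 normal samples (blue) and 5 tumor samples (orange); black marks are mean and SD, and every panel spans the same number of log2 units. Siglech is shown by its repeat-bearing probe and Xcr1 was not well above background on 11 of 12 arrays. For Dpp4 and Fscn1, 4 of 5 tumor points sit above the highest normal point.

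Of the conventional dendritic cell markers, Dpp4 was higher in tumor on average and Zbtb46 was not, and neither passed the threshold. Dpp4, a surface peptidase (CD26) of dendritic cells, T cells and epithelium, stood at 0.95, 0.75, -0.48, 0.77 and 1.36 in tumor samples 1, 2, 3, 4 and 6 together, and 5. In normal samples 1, 2 and 3 together, 4, 5 and 6 it was -0.93, -2.54, -1.94, -0.12 and 0.34. Tumor samples were high except replicate 3, 4 of 5 lay above the highest normal sample, and the groups overlapped through tumor replicate 3. The means were 0.67 ± 0.69 in tumor and -1.04 ± 1.21 in normal (SD, n = 5 each), a difference of 1.71 (SE 0.56, 95% interval 0.47 to 2.94), or 3.27-fold. Its limma adjusted p was 0.224, so Dpp4 did not pass the threshold. On normal replicates 2 and 3 its probe was not well above background, which leaves those low values poorly measured. Within slides 1, 2 and 3 the difference was 2.81, 2.16 and 0.96, and without normal replicates 2 and 3 it was 1.33.

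Zbtb46 was measured by probe A_52_P241508 at -0.91, -2.10, -3.27, 0.12 and -0.60 in the tumor samples, in the order used for Dpp4. The normal samples gave -0.65, -2.65, -0.48, -1.09 and -0.81. The tumor range enclosed the normal one, with tumor replicate 3 and normal replicates 2 and 3 lowest. The difference was -0.22 (SE 0.64, 95% interval -1.62 to 1.19, limma adjusted p = 0.911). The other probe, A_52_P214042, was well above background on 4 tumor arrays and 1 normal array and had a normal mean of -3.91 ± 0.85 and a tumor mean of -3.40 ± 1.72 (SD, n = 5), most of it near background.

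Among markers of the type 1 subset, neither Batf3 nor Cd24a differed beyond its error, and Xcr1 was barely detected. Batf3, the transcription factor that the subset requires, was well above background on all 12 arrays. It stood at 2.70, 1.31, 0.91, 2.37 and 1.77 in tumor samples and at 2.99, -0.19, 2.12, 1.37 and 1.92 in normal samples. The tumor values all lay within the normal range, and the averaged normal replicates 2 and 3 were far below the other normal samples. The difference was 0.17 (SE 0.56, 95% interval -1.07 to 1.41, limma adjusted p = 0.92), and it became -0.29 without normal replicates 2 and 3 and -0.05 without tumor replicate 1.

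Xcr1, the chemokine receptor of type 1 cells, rose well above background only on normal replicate 6, that is on 0 of 6 tumor and 1 of 6 normal arrays. Its processed signal was between 26.6 and 28.9 on 9 of the 12 arrays, and it reached 153 on normal replicate 6 and 79.4 on tumor replicate 5. It was not tested, and no fold is given. Cd24a, a surface glycoprotein of type 1 cells and of many other cells, ran from 2.58 to 3.03 in tumor samples and from 2.15 to 3.57 in normal samples. The means were 2.83 ± 0.20 and 2.65 ± 0.57 (SD, n = 5), and the difference was 0.18 (SE 0.28, 95% interval -0.45 to 0.81, limma adjusted p = 0.819). Its highest value was that of normal replicates 2 and 3, the normal sample in which the lists of other cells that make it were also highest. Summed levels there were 93.9 for ductal markers (15 to 55.6 in other normal samples), 27.1 for erythroid (5.19 to 25.9), 9.5 for B cell (5.29 to 8.71) and 24.2 for neutrophil markers (18.1 to 23.8). That sample, from the dimmest arrays, was also the highest normal one for macrophage identity (900), acinar (2950), islet (450), endothelial (22.9) and fibroblast markers (138). The same held for the monocyte, type 2, mature migratory and plasmacytoid lists. The plasmacytoid sum there (105) came mostly from Siglech probe A_55_P2141013, which carries the AAAG run and stood at 6.52. That rank therefore says little about the other plasmacytoid genes. The average of normal replicates 2 and 3 was not the highest for the conventional core, type 1, regulator, T cell and NK cell lists. The part of any of these cells, or of the dim arrays, in the Cd24a value was not tested.

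Cd209a, a lectin (DC-SIGN family) of monocyte-derived and type 2 dendritic cells, varied more among samples than between groups. Its probe A_55_P2018061 gave 1.99, 2.0, 0.59, 1.96 and 3.77 in tumor samples. In normal samples the same probe gave 2.68, 1.48, -0.52, 2.43 and 2.88. Tumor replicate 5 was highest and normal replicate 4 lowest, a spread of 9.04-fold within tumor and 10.6-fold within normal samples. The difference was 0.27 (SE 0.71, 95% interval -1.30 to 1.85, limma adjusted p = 0.898). Probe A_51_P133884 had the same highest sample and gave -0.10 (SE 0.60, adjusted p over probes = 0.958). Both probes were well above background on all 12 arrays.

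The markers of mature dendritic cells differed in opposite directions, and neither passed the threshold. Fscn1 encodes fascin, the actin-bundling protein of dendrites, and stood at 6.53, 5.10, 3.33, 5.65 and 5.23 in tumor samples. In normal samples it was 3.71, 4.84, 2.79, 2.70 and 3.09. Tumor replicate 1 was highest, 4 of 5 tumor samples lay above the highest normal sample, and tumor replicate 3 lay inside the normal range. The means of 5.17 ± 1.17 and 3.43 ± 0.88 (SD, n = 5) differed by 1.74 (SE 0.59, 95% interval 0.44 to 3.04), or 3.34-fold, with a limma adjusted p of 0.241. Within slides 1, 2 and 3 the difference was 1.54, 0.69 and 2.51. With slide as a covariate and sample name as a random effect it was 1.71 for Fscn1 and 1.80 for Dpp4.

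Cd83, a surface protein that stabilises MHC class II, was lower in tumor on average. It stood at 4.48, 4.72, 3.83, 4.13 and 5.62 in tumor samples and at 5.66, 5.44, 5.33, 4.79 and 5.39 in normal samples. Tumor samples other than replicate 5 lay below the lowest normal sample, and replicate 5 lay near the top of the normal range. The means were 4.56 ± 0.68 and 5.32 ± 0.32 (SD, n = 5), a difference of -0.76 (SE 0.33, 95% interval -1.5 to -0.03), or 1.70-fold lower in tumor. Its limma adjusted p was 0.364. The difference was -0.99, -1.34 and -0.23 within slides 1, 2 and 3.

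**Figure D2:**
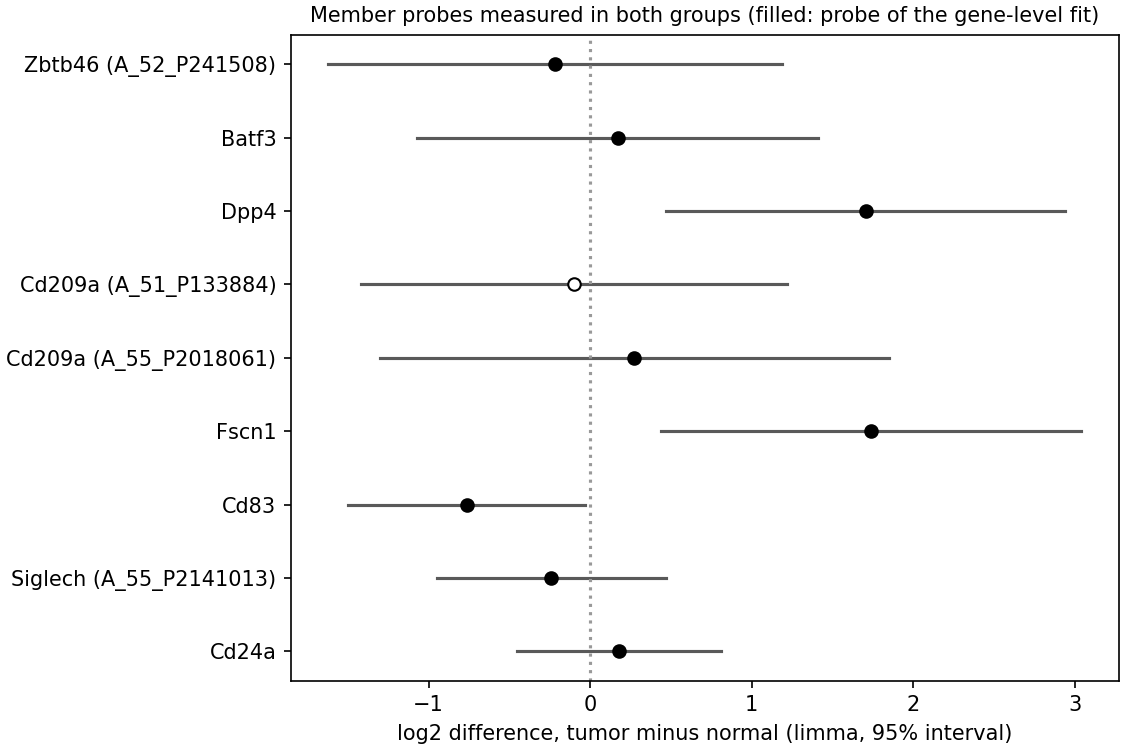
Log2 difference, tumor minus normal, of the 9 member probes well above background on at least 3 arrays of both groups, with its 95% interval from limma. Filled points are the probes that stand for the gene in the fit over genes; of the 9 intervals, those of Dpp4, Fscn1 and Cd83 leave out 0, before any adjustment over genes or probes.

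For Siglech, a sialic acid-binding receptor of plasmacytoid dendritic cells, the result depended on the probe. The bright probe A_55_P2141013, which carries the AAAG run shown above, was well above background on all 12 arrays with signals from 36240 to 94586. It had the highest mean of the 3 probes and so stood for Siglech in the fit over genes, where its difference was -0.24 (SE 0.32, 95% interval -0.95 to 0.47, limma adjusted p = 0.783). The other probes were dim. A_55_P2165790 gave signals of 243, 492 and 298 on normal replicates 4, 5 and 6, where it was well above background, and 39.9, 29.7 and 30.4 on normal replicates 1, 2 and 3, where it was not. On the 6 tumor arrays it was never well above background, with signals from 29.0 to 64.6.

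As log2 levels, A_55_P2165790 had means of -5.09 ± 0.47 in tumor and -2.72 ± 1.38 in normal samples (SD, n = 5). For a fold, each tumor array counted with the higher of the probe's signal and the dimmest signal that was well above background there. The normal mean over that tumor mean gave 3.09-fold lower in tumor. This value is not a lower bound, because the normal mean includes replicates 1, 2 and 3, where the probe read at background. The size of the difference was therefore not established. A_55_P2141008 was well above background on normal replicates 4, 5 and 6, at 455, 233 and 168, and on tumor replicate 6, at 153. Its signals were 43.8 to 63.4 on the other normal arrays and 43.1 to 102 on the other tumor arrays, at background. Normal and tumor samples overlapped for both dim probes, since normal replicate 1 lay below the highest tumor sample, the average of replicates 4 and 6. When the 774 repeat-bearing probes (1.96% of all probes, those sharing stretches with 20 or more genes) were left out, Siglech was represented by A_55_P2141008. The log2 difference for Siglech was then -1.41 instead of -0.24. Since A_55_P2141008 was not well above background on most arrays, that value is poorly measured. Leaving out repeat-bearing probes was chosen after the Siglech sequences had been seen.

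**Figure D3:**
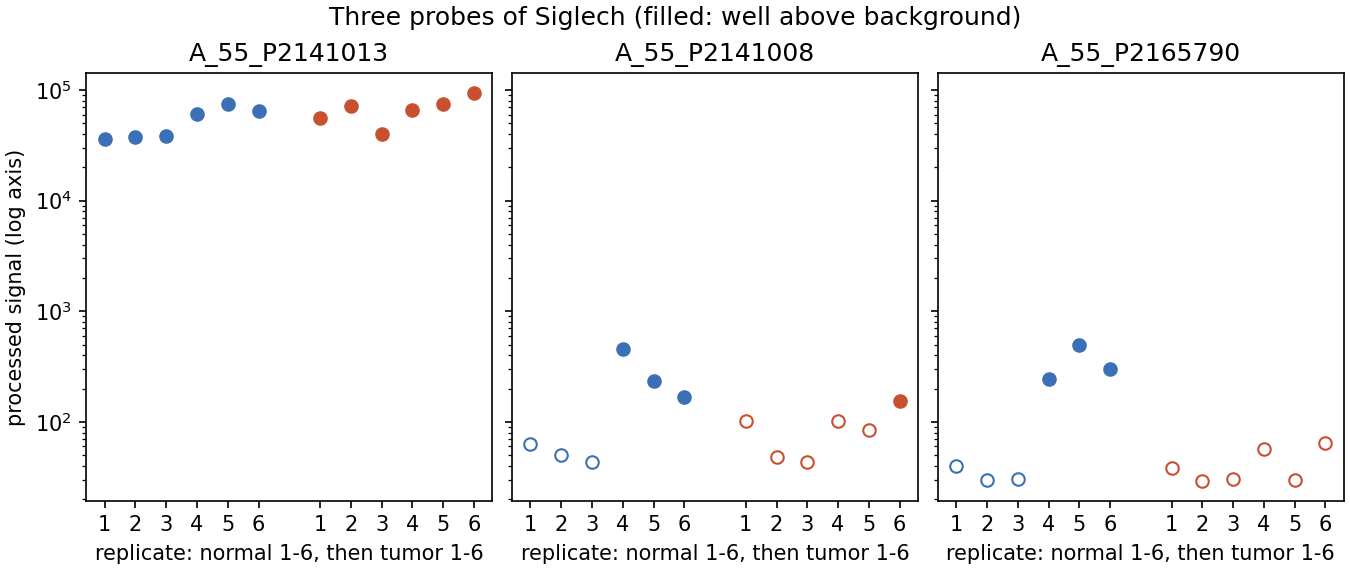
Processed signal of the 3 Siglech probes on each of the 12 arrays, on a log axis, normal replicates in blue and tumor replicates in orange; filled points are well above background. A_55_P2141013 is bright on all arrays, whereas A_55_P2165790 rises above background only on normal replicates 4, 5 and 6.

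Member probes varied among tumor samples in a shared way, a pattern noticed after the values were seen. Of the 9 member probes well above background on all 6 tumor arrays, tumor replicate 3 was the lowest of the 5 tumor samples for 9, against 21.2% of all probes so measured. The 9 probes include both Cd209a probes. Replicate 3 was also lowest for 36 of 67 other genes of the dendritic lists described below (53.7%), against 21% of all genes above background on all 6 tumor arrays, and for 4 of 15 macrophage identity genes (26.7%). Its array was the brightest of the tumor group (75th percentile of 1398), and its summed macrophage identity level was 490, against 594 to 686 in the other tumor samples. Tumor replicate 5 was highest for 5 of the 9 probes. Without tumor replicate 3 the difference was 2.0 for Dpp4 (limma adjusted p = 0.203), 2.20 for Fscn1 (0.101) and -0.58 for Cd83 (0.559). Arrays that carried the same sample name differed by a median of 0.11 between normal replicates 2 and 3 (7 member probes above background on both arrays) and 0.10 between tumor replicates 4 and 6 (10 probes).

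**Figure D4:**
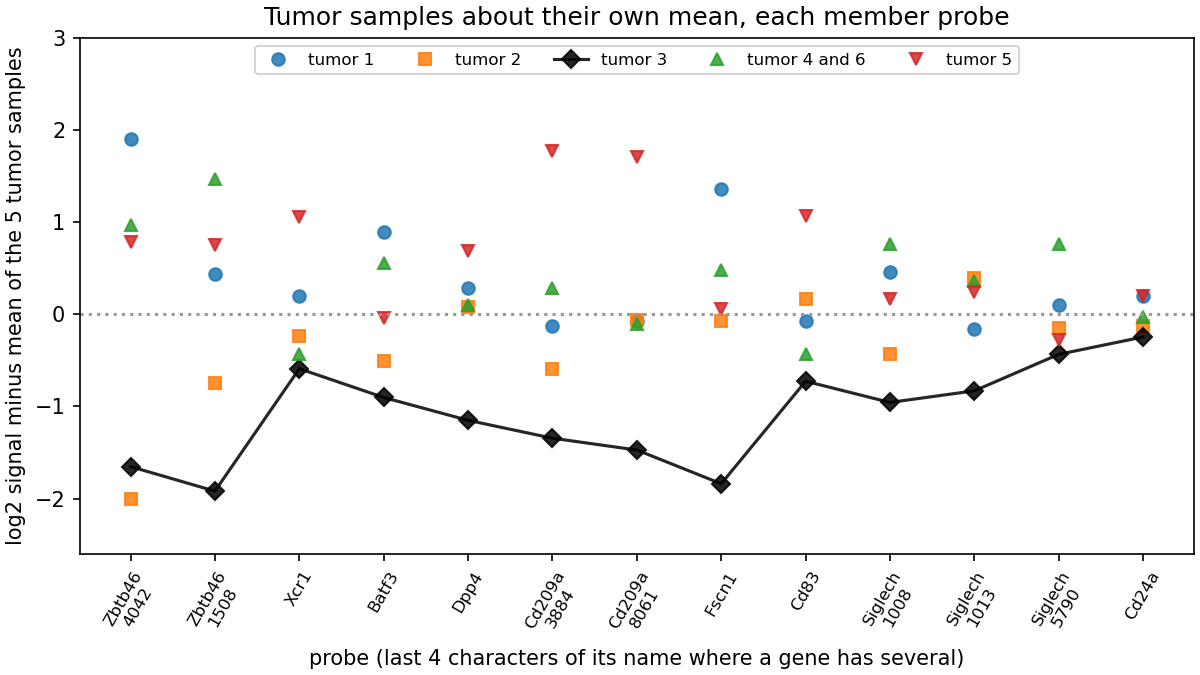
Log2 signal of each of the 13 member probes in the 5 tumor samples, minus the mean of those samples for that probe. The joined black points are tumor replicate 3, the lowest sample for every probe but Zbtb46 A_52_P214042, for which tumor replicate 2 was lowest. The values of Xcr1, Zbtb46 A_52_P214042 and both dim Siglech probes were mostly at background, where a brighter array gives a lower level.

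Other genes of the lineage were taken from 6 lists, which also hold the members themselves and share some genes with each other. The lists were chosen with earlier results of these data known, so their counts and medians are descriptions and not independent tests. Over all genes tested, 0.853% passed the adjusted threshold, 13.0% had an unadjusted p under 0.05, and 1.75% had every tumor sample above every normal one, and the counts below stand beside these shares. Of the conventional core list, 19 of 20 genes were tested, 16 were higher and 3 lower in tumor, 0 passed limma's adjusted threshold and 6 had an unadjusted p under 0.05. Its median difference was 0.96, against -0.005 over all genes, with a range of 0.58 to 1.32 over 26 alternatives. Over its 14 genes above background on at least 3 arrays of both groups it was 0.66 (11 higher). Itgax, the integrin CD11c shared with macrophages, differed by 1.21 (SE 0.36, limma adjusted p = 0.191) with no overlap between groups. Btla, an inhibitory receptor of lymphocytes and dendritic cells, was at -1.44 ± 0.86 in tumor and -3.84 ± 1.14 in normal samples (SD, n = 5) but stood well above background on only 1 normal array of 6. Ccr7, the receptor that guides cells to lymph nodes, differed by 2.41 (SE 0.91, adjusted p = 0.305), and Flt3, the growth factor receptor, by 1.16 (SE 0.65, adjusted p = 0.485), or 0.28 to 1.85 over its 3 probes.

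The subset lists had lower medians than the core list. In the type 1 list 13 of 18 genes were tested, 10 higher and 3 lower, 0 passed the adjusted threshold, 3 had an unadjusted p under 0.05, and the median was 0.21. Naaa, a lysosomal amidase, differed by 1.5 with no overlap between groups (limma adjusted p = 0.247). Itgae, the integrin CD103, differed by 1.53 (0.26), Id2, an inhibitor of E proteins, by 1.59 (0.314), Irf8 by 0.21 (0.791) and Cadm1, an adhesion molecule, by -0.94 (0.472). Id2 was well above background on only 3 of 6 normal arrays, and Itgae and Cadm1 on 4. Clec9a, the dead-cell receptor of type 1 cells, was well above background on 2 tumor arrays and 1 normal array and was not tested. In the type 2 list 13 of 14 genes were tested, 9 higher and 4 lower, with 0 past the adjusted threshold, 5 at an unadjusted p under 0.05 and a median of 0.27. Its members with the smallest p were Klf4, a transcription factor, at 0.91 (limma adjusted p = 0.269), Cd1d1, which presents lipids, at 1.84 (0.292), Cd7 at 2.02 (0.324) and the decoy receptor Il1r2 at 3.0 (0.33). Irf4 differed by 0.40 (0.679). On normal arrays Cd1d1 was well above background on 4 of 6, and Cd7 and Il1r2 on 5.

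The mature migratory list had the highest median of the 6 dendritic lists, 1.18 (0.69 to 1.34 over 26 alternatives, and 1.19 over its 19 genes measured in both groups). Of its 21 genes tested of 23, 17 were higher and 4 lower in tumor, 11 had an unadjusted p under 0.05, and 1 rose past the adjusted threshold. That gene was Ccl17, a chemokine for Ccr4-bearing T cells that dendritic cells and alternatively activated macrophages make. It stood at 4.48 ± 1.16 in tumor and 1.04 ± 1.22 in normal samples (SD, n = 5), a difference of 3.44 (SE 0.67) or 10.9-fold, with a limma adjusted p of 0.0452. The call did not survive leaving out normal replicate 1, 2 with 3, 4 or 5, or tumor replicate 1, 2, 4 with 6, or 5 (adjusted p = 0.0509 to 0.129), and the difference stayed between 2.90 and 4.36 over 26 alternatives. Anxa3, an annexin, differed by 1.19 (SE 0.26, limma adjusted p = 0.0659) with no overlap. With slide as a covariate and sample name as a random effect Anxa3 passed, at 1.16 (adjusted p = 0.0285), and it passed in 5 of 26 alternatives (adjusted p = 0.0133 to 0.766). Socs2, a cytokine signalling suppressor, differed by 1.67 (adjusted p = 0.143) and Il4i1, an amino acid oxidase, by 2.24 (adjusted p = 0.214).

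In the plasmacytoid list 12 of 13 genes were tested, 6 higher and 6 lower, with 0 past the adjusted threshold, 2 at an unadjusted p under 0.05 and a median of -0.02 (-0.21 over its 10 genes measured in both groups). Tcf4, the factor that plasmacytoid cells require, differed by -0.71 (SE 0.22, limma adjusted p = 0.207) with no overlap between groups. Spib, an Ets factor of plasmacytoid and B cells, differed by 2.64 (SE 0.93, adjusted p = 0.265). It was well above background on only 3 of 6 normal arrays, so the size of that difference is poorly measured. Upb1 differed by -1.30 (adjusted p = 0.468), and Irf7, a driver of interferon genes, by 0.60 (adjusted p = 0.556).

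Of 18 genes tested among 19 growth factors and regulators of the lineage, 15 were higher and 3 lower, 3 had an unadjusted p under 0.05, 1 passed the adjusted threshold and the median was 0.34. Csf2rb, the shared receptor chain for GM-CSF, IL-3 and IL-5 and also made by macrophages, rose by 1.51 (SE 0.29, limma adjusted p = 0.0414) with no overlap between groups. Its other probe gave 2.01, and its close paralog Csf2rb2 may share signal with it. The call was lost without the same samples as for Ccl17 (adjusted p = 0.0534 to 0.123), when arrays were scaled on macrophage identity genes (0.0529) and with no filter on dim probes (0.0638). Nfil3, a transcription factor needed for type 1 cells, differed by 1.32 (adjusted p = 0.174), and Stat3 by 0.40 (adjusted p = 0.431).

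**Figure D5:**
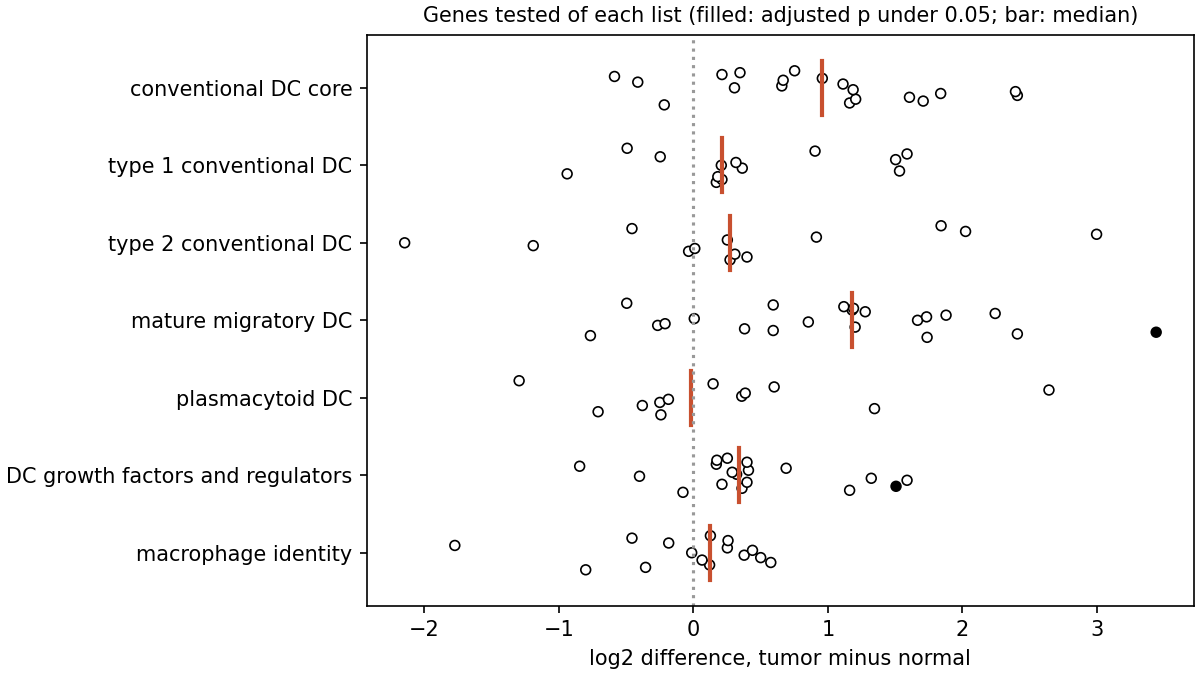
Log2 difference, tumor minus normal, of each gene tested in 6 dendritic lists and the macrophage identity list; filled points passed an adjusted p under 0.05 (Ccl17 and Csf2rb) and orange bars are medians. The medians of the mature migratory and conventional core lists, 1.18 and 0.96, lie farthest from 0; over genes above background in both groups they are 1.19 and 0.66.

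The sorted cells carried macrophage markers in both groups. All 15 macrophage identity genes, with Adgre1, Csf1r and Mertk as the defining ones, were above background on some array and those 3 on all 12 arrays. Their summed level, in multiples of the 75th percentile of signal, was 490 to 686 in tumor and 429 to 900 in normal samples, with 0 of 15 past the threshold, 2 at an unadjusted p under 0.05 and a median difference of 0.12. Those 2 were lower in tumor on average: Adgre1, the classical macrophage surface marker, by a log2 difference of -0.80 (SE 0.24, limma adjusted p = 0.195, -0.87 by its other probe), and Cd163, a scavenger receptor named after its value was seen, by -1.77 (adjusted p = 0.122) with no overlap between groups. In such bulk samples, fewer cells of a type and less RNA per cell cannot be told apart.

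Markers of other cells were present at levels that partly moved with the groups. The acinar list summed to 6.1 to 189 in tumor and 329 to 2950 in normal samples, the islet list to 7.71 to 10.4 and 16.5 to 450. Of 9 acinar genes tested, 7 passed the adjusted threshold and 9 were lower in tumor with no overlap, with a median difference of -6.11. Of 7 islet genes tested, 0 passed and 4 were lower with no overlap, with a median of -2.1. Over all genes tested, 1.57% were lower with no overlap. The monocyte list ran the other way, 73.9 to 129 in tumor and 39.5 to 57.1 in normal samples, measured on 10 of its 11 genes. Of its defining markers, Ccr2 differed by 0.61 (limma adjusted p = 0.572) and Plac8 by 0.22 (0.893), and Ly6c2 was not on the array. The median difference of the monocyte list was 1.29 with 3 of 10 genes past the adjusted threshold. That of the neutrophil list was 1.37 with 1 of 8, and both lay above the medians of the mature migratory and core lists. Over genes measured in both groups the medians were 0.75 (8 monocyte genes, 2 past the threshold) and 0.79 (4 neutrophil genes, 0 past it). Over such genes both lay below the mature migratory median of 1.19 and above the core median of 0.66. T cell markers summed to 8.56 to 20.7 and 8.33 to 15.4, with Cd3g and Il7r never above background, and Cd3e above background on all 12 arrays. The T cell sum was highest, at 20.7 each, in tumor replicates 1 and 5, the samples with the highest Fscn1 and the highest Dpp4. Replicates 1 and 5 also had the highest sums of the core (71 and 106) and type 1 lists (55 and 51). They were likewise highest for the mature migratory (310 and 240) and regulator lists (194 and 188). For the type 2 list replicate 5 was highest (403), but replicate 1 (342) was not second. The plasmacytoid sum was highest in tumor replicate 2 (78.8), against 61.6 and 76 in replicates 1 and 5. Most of that sum came from the repeat-bearing Siglech probe A_55_P2141013, so it says little about the other plasmacytoid genes. The T cell list had a median difference of -0.11, with 2 of 7 genes tested higher in tumor.

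B cell markers summed to 4.51 to 8.3 in tumor and 5.29 to 9.5 in normal samples, with Ms4a1 never above background. NK cell markers summed to 9.6 to 16.7 and 7.71 to 13.5 (Klrb1c never above background), and neutrophil markers to 22.6 to 31 and 18.1 to 24.2. Of the defining neutrophil markers, S100a8 was above background on 5 tumor and 0 normal arrays, S100a9 on 5 and 3, and Ly6g on 1 and 2. Erythroid markers summed to 2.29 to 9.11 and 5.19 to 27.1 (Klf1 never above background), ductal markers to 16.3 to 40.2 and 15 to 93.9 (Cdh1 and Sox9 never), endothelial markers to 3.21 to 6.55 and 4.03 to 22.9, and fibroblast markers to 35 to 75.3 and 33.3 to 138 (Pdgfra never). The part of any of these cells in the member values was not tested.

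The genes whose levels followed each member most closely over the 10 samples are given as a description, since any genes of one set of libraries share sample differences and brightness. Dpp4 was followed by Spib (Pearson r = 0.953), Adora2a (0.951, by a repeat-bearing probe) and Rassf3 (0.945). Fscn1 was followed by Cacnb3 (0.952), a calcium channel subunit of the mature migratory list, by Tcf7 (0.932), of the T cell list, and by Apol7a (0.924). Cd83 was followed by Dock11 (0.934) and Ivns1abp (0.933), Batf3 by Fam168a (0.963), Lhx4 (0.954) and Me2 (0.946), and Cd209a by the integrin chain Itgb7 (0.95), Dhx40 (0.918) and Cadm3 (0.9). Cd24a was followed by Gcnt1 (0.952), Htra3 (0.931) and H4f16 (0.928), and Zbtb46 by Lelp1 (0.948), Pdp1 (0.912) and Zfyve19 (0.896). The gene nearest to Siglech by its bright probe was Gm10856 (0.976), whose probe was also among the 774 repeat-bearing ones, followed by Lhfp (0.955) and Bicdl1 (0.946), whose probes were not.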

How the data were processed

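The authors deposited scanner intensity values for 12 single-color arrays, read in the red channel with Agilent Feature Extraction 11.5.1.1 per the file headers, in which the processed signal has background and spatial trends removed. They also deposited a log2 table, which the values show to be quantile-normalized log2 processed signal (lowest correlation 0.9999). Flags other than intensities are those of the scanner software. Control spots and outlier-flagged spots (0.401%) were left out, and 0 were saturated. Log2 processed signals were averaged over the spots of a probe and scaled by subtracting each array's 75th percentile. The filter kept 22463 probes that stood well above background on 3 or more of the 6 arrays in either group. Names came from the accession (28025 probes), symbol (3413) or synonym (295) in a GRCm38.p6 table, or from the file (4985), and 2711 probes had none.

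Each gene was represented by its probe with the highest mean. The test was limma 3.58.1 under R 4.3.3, two-sided, by lmFit with eBayes, with Benjamini-Hochberg adjustment over all genes or all probes, and the script was tested on simulated data. The number of arrays limits the precision. The 3 slides held 2 arrays per group each and were scanned separately. Members and gene lists were chosen with earlier results of these data known. Named genes are the members, the 4 smallest p-values of each dendritic list with 8 key genes, the first 3 markers of other lists, and the 3 genes nearest to each member. The alternatives were other background corrections, scalings, filters, probe rules, variance models and thresholds, single slides, and each sample left out. A pair of alternatives was chosen after seeing the data: leaving out repeat-bearing probes, and leaving out normal replicates 2 and 3, which is 1 of the fits with a sample left out. Some markers and some probe sequences are not reported here.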

Additional observations from a re-analysis of the deposited data

Results flagged for a closer look

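In the groups of 5 samples, the highest or lowest sample was compared with its nearest neighbour (gap over range above 0.71), for 78 groups of values. Chance flags about 1 in 20 such groups. Both samples that stood apart were the average of normal replicates 2 and 3, the dimmest arrays. Zbtb46 by probe A_52_P241508 was at -2.65 there, against -1.09 to -0.48 in the other normal samples, and was not well above background on those arrays. Cadm1 was at -2.43 there, against -0.15 to 0.50.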

How the results depend on the processing

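Over 26 alternatives, 0 members passed the threshold. Dpp4 and Fscn1 stayed positive in all 26 (0.96 to 2.81 and 0.69 to 2.51, lowest limma adjusted p 0.0693 and 0.0812), and Cd83 stayed negative (-1.34 to -0.23). Small differences changed sign. Zbtb46 was 0.28 with 12 arrays as separate samples, 0.02, 0.10 and 0.73 within slides 1, 2 and 3, and 0.15 as the mean over probes. With a sample left out it ran from -0.60 (without normal replicates 2 and 3) to 0.26 (without tumor replicate 3), with -0.58 without tumor replicates 4 and 6 and -0.40 without tumor replicate 5. Cd209a was -0.05 within slide 1 and ran from -0.31 (without normal replicate 4) to 0.64 (without tumor replicate 3) with a sample left out, with -0.15 without tumor replicate 5. Its probe A_51_P133884 was 0.03 with normexp, 0.02 with 12 arrays, 0.26 and 0.39 within slides 2 and 3, and -0.55 (without tumor replicate 5) to 0.23 (without tumor replicate 3) with a sample left out, positive without normal replicates 1, 5 and 6 (0.09, 0.06 and 0.02) and tumor replicate 2 (0.05). With a sample left out, Batf3 ran from -0.29 (without normal replicates 2 and 3) to 0.51 (without normal replicate 1), with -0.05 without tumor replicate 1. Cd24a was -0.26 and -0.39 within slides 1 and 2, and Siglech 0.25 within slide 3. The cause of these changes was not tested.

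Genes past the threshold numbered 213 with normexp, 461 with 12 arrays as separate samples, 236 with a trended robust variance, 265 at an adjusted p under 0.1, and 59 to 197 with a sample left out. Probes numbered 594, 292 and 347 under the same settings other than normexp, and 85 to 286 with a sample left out. Single slides, with 4 arrays each, passed 0 genes and 0 probes in limma, with 1594, 1564 and 952 genes and 2146, 2186 and 1313 probes at an unadjusted p under 0.05. No paired analysis was possible because replicate numbers follow the order of deposit and name no pair. Siglech and Xcr1 were limited by signal over background.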
